A study of Homo sapiens with 6 samples.

Results

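The cancer-testis genes MAGEA3, MAGEA6, MAGEA2, MAGEA2B, MAGEA12, MAGEA1, MAGEA4, CSAG1, CSAG3 and SAGE1 were followed in HEK-293T cells, an immortal line derived from human embryonic kidney and made to express SV40 large T antigen. These 10 of the 62348 rows in the count files were chosen by their counts in the same comparison, as genes expressed in wild-type cells and silent in C17orf80 knockout cells. Their contrast is therefore a description, with no test. The 3 libraries labelled C17orf80 knockout (KO) came from cells given Cas9 and a guide RNA against C17orf80, and the 3 wild-type (WT) libraries from cells given a non-targeting guide RNA. Per the labels' protocols, cells were selected with puromycin as monoclonal cells, and mRNA was purified on poly-T beads. The sources used here do not give the number of clones in either group, so clonal differences and effects of the guide cannot be told apart. Nor do they say whether the libraries of a group were separate cultures, so errors and p-values cover only how these libraries spread, and that spread may be technical.

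Cancer-testis genes are active in male germ cells, silent in most other adult tissues, and often active again in tumours and tumour-like cell lines, where peptides of their proteins can be shown to T cells. The MAGEA and CSAG genes lie in a cluster on Xq28 that holds copied and inverted segments, and SAGE1, sarcoma antigen 1, lies apart from it on Xq26. In somatic cells MAGEA promoters are kept off by DNA methylation, and factors of the ETS family are known to drive them when they are unmethylated. MAGE-A proteins bind E3 ubiquitin ligases: MAGEA3 and MAGEA6 bind TRIM28, and MAGEA4 binds RAD18.

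The promoter sequences come first because they show how far the listed genes share their start regions. RefSeq windows of 250 bases upstream of a start (GRCh38.p14) were found for 9 of the 10 genes, in 15 windows, as some genes have several starts. The MAGEA3 window (chrX:152698544-152698793, plus strand) and the MAGEA6 window (chrX:152769690-152769939, minus strand) were identical at 250 of 250 bases, and the sequence is printed once. The SAGE1 window (chrX:135893466-135893715, plus strand) is shown beside it as that of the expressed member outside the cluster. Capitals mark CCGGAA, the core of ETS sites with a CpG, searched on both strands, and in the MAGEA3 window also the run GGATGTGACGCCACTGACTTGCGC.
MAGEA3 and MAGEA6: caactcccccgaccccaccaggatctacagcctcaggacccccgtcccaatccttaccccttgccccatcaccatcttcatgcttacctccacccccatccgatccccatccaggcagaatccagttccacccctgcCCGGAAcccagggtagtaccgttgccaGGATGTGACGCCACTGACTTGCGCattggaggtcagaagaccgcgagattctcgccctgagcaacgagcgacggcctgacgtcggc
SAGE1: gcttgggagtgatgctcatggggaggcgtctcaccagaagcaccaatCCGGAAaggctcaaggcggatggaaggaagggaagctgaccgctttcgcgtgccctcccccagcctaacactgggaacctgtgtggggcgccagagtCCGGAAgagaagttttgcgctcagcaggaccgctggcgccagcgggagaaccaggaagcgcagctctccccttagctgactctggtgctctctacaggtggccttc
CCGGAA stood once in the MAGEA3 and MAGEA6 windows and at 2 places in the SAGE1 window, so in 3 of the 15 member windows (20%, with the identical pair counted as 2 windows), against 14.5% of all 35116 windows. At 2 places or more it stood in 3.17% of all windows. GGGCGG, the GC box, was present in 4 of the 15 member windows (26.7%), all of them of MAGEA4, against 42.6% of all windows. The run of 24 bases was found in windows of 7 genes, all of the cluster: CSAG1, CSAG3, MAGEA12, MAGEA2, MAGEA2B, MAGEA3 and MAGEA6, or 0.0199% of all windows. CpG dinucleotides numbered 5 to 17 in the member windows, with a median of 12 against 11 over all windows. Of the expressed members, CSAG3 had 17, MAGEA3 and MAGEA6 had 15, SAGE1 13 and MAGEA2B 11, and the MAGEA2 windows had 9 and 11. A match of letters is not a bound site, and the files hold no measure of binding or methylation.

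Several members start head to head with another gene on the opposite strand. The RefSeq starts of MAGEA2 and CSAG3 are 37 bp apart, and those of MAGEA12 and CSAG1 are 36 bp apart. The bases between the starts are shown because the first pair was counted in WT libraries and the second had 1 count over them. Reads of MAGEA12 could have been set aside as ambiguous, as given below, so a lack of its expression cannot be read. The bases are given on the strand of MAGEA2 (chrX:152753885-152753920, minus strand) and of MAGEA12 (chrX:152733722-152733756, plus strand), and capitals mark the 2 runs, of 15 and 14 bases, that both hold.
Between MAGEA2 and CSAG3: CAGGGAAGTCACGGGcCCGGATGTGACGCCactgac
Between MAGEA12 and CSAG1: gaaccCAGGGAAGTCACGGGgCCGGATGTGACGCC
MAGEA3 and its divergent lncRNA MAGEA3-DT start 67 bp apart, MAGEA6 and MAGEA6-DT 52 bp apart, and SAGE1 and CT45A10 272 bp apart.

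Before the members, the libraries were checked. Counts in genes ranged from 15942017 to 16122771 in libraries labelled KO and from 14982340 to 16278091 in WT libraries, and levels are given in CPM, counts scaled to the size of the library, after TMM scaling. C17orf80 itself, the targeted gene (ENSG00000141219), had 763, 699 and 698 counts in the libraries labelled KO, against 397, 451 and 476 in WT libraries. Its mRNA was thus higher in every library labelled KO, at 46.9 ± 8.22 CPM against 27.3 ± 1.72 CPM in WT (SD, n = 3 each; log2 fold change 0.78 ± 0.17 SE, edgeR quasi-likelihood test, adjusted p = 0.0232). The mRNA level therefore does not bear out the label, so the text says "labelled KO" throughout. Counts per gene show neither an edit of the sequence nor the protein, so the knockout itself was not tested. KO replicate 1 stood apart: its log CPM correlated at 0.932 and 0.945 with the other KO-labelled replicates, which correlated at 0.987 with each other, and WT pairs correlated at 0.988. Over all 17452 tested genes, 8.64% rose and 6.50% fell in those labelled KO, and without KO replicate 1 these shares were 22.3% and 21.7% of 18133. Of 11 genes typical of the line, 10 were tested, and their summed level was 678 to 816 CPM in libraries labelled KO and 726 to 758 CPM in WT libraries. Among them INA, CDH2 and the Wilms tumour gene WT1 rose and NEFL and EYA1 fell. INA, a neurofilament gene, had 459, 393 and 411 counts in libraries labelled KO and 0 in all WT libraries. It thus passed the filter on low counts through the libraries labelled KO alone, and its rise is a description. Of 11 defining germ cell markers 8 had 0 counts in all 6 libraries, and the list summed to 0.0601 to 0.303 CPM in libraries labelled KO and to 0 to 0.123 CPM in WT libraries. Fibroblast markers summed to 28.5 to 38.4 CPM in libraries labelled KO and 62.4 to 67.1 CPM in WT libraries (of 4 tested, COL1A1 and COL3A1 fell and LUM rose), and their part in the results below was not tested. Epithelial markers summed to 7.40 to 9.68 CPM in libraries labelled KO and 7.41 to 7.84 CPM in WT libraries, and the tested genes of that list, EPCAM and CDH1, did not pass.

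Of the 10 listed genes, 6 were expressed in WT libraries and all but absent from the libraries labelled KO: MAGEA6, MAGEA3, CSAG3, SAGE1, MAGEA2B and MAGEA2. The other 4, MAGEA12, MAGEA1, MAGEA4 and CSAG1, had at most 4 counts over the WT libraries, so for them the listing as expressed in WT was not borne out and no loss can be read. Summed over all 10 genes, there were 0, 3 and 2 counts in KO replicates 1 to 3, against 3538, 3717 and 3703 counts in WT replicates 1 to 3. The mean summed level in libraries labelled KO was 0.0446% of that in WT. From the counts pooled over each group and divided by its summed scaled library size, which weights libraries by size, the ratio was 2106-fold, with an exact 95% counting interval from 902 to 6486. All fold ratios and limits below are such pooled ratios, and differ somewhat from ratios of mean CPM. Such intervals, and the limits given for counts of 0, cover counting error only. In these bulk samples, fewer expressing cells and less RNA per cell cannot be told apart. Groups of the 6 genes did not overlap, as was the case, with KO-labelled libraries below WT, for 24.1% of all tested genes. The 6 were also the members that passed the filter on low counts, which they passed through WT alone, and nothing is read from that count.

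MAGEA3 (ENSG00000221867, chrX:152698794-152702347), which with TRIM28 targets the AMPK catalytic subunit for degradation, had 0, 1 and 0 counts in KO replicates 1 to 3, against 1283, 1339 and 1391 counts in WT replicates 1 to 3. Its level was 0.0202 ± 0.0350 CPM in libraries labelled KO and 82.7 ± 2.91 CPM in WT (SD, n = 3 each). The pooled ratio of 3855-fold rests on 1 count, with a counting interval from 692 to 152318. Its near-identical copy MAGEA6 (ENSG00000197172, chrX:152766136-152769689), which shares these partners, had 0, 2 and 2 counts in KO replicates 1 to 3, against 1771, 1817 and 1817 counts in WT replicates 1 to 3. The WT libraries lay close together for both genes, and the few remaining counts fell in KO replicates 2 and 3. MAGEA6 averaged 0.0805 ± 0.0698 CPM in libraries labelled KO and 111 ± 3.62 CPM in WT. Since reads can be split between such copies in ways the sources do not state, the joint count is the firmer value. MAGEA3 and MAGEA6 together had 0, 3 and 2 counts in KO replicates 1 to 3, against 3054, 3156 and 3208 counts in WT replicates 1 to 3. The mean level left was 0.0519% of that in WT, and the pooled ratio was 1810-fold, with a counting interval from 775 to 5575. MAGEA6 took 58.0%, 57.6% and 56.6% of the joint count in WT replicates 1 to 3 (57.4 ± 0.691%, SD, n = 3), a steady split. The annotated spans of both copies are of equal length, so their levels can be set side by side.

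**Figure D1:**
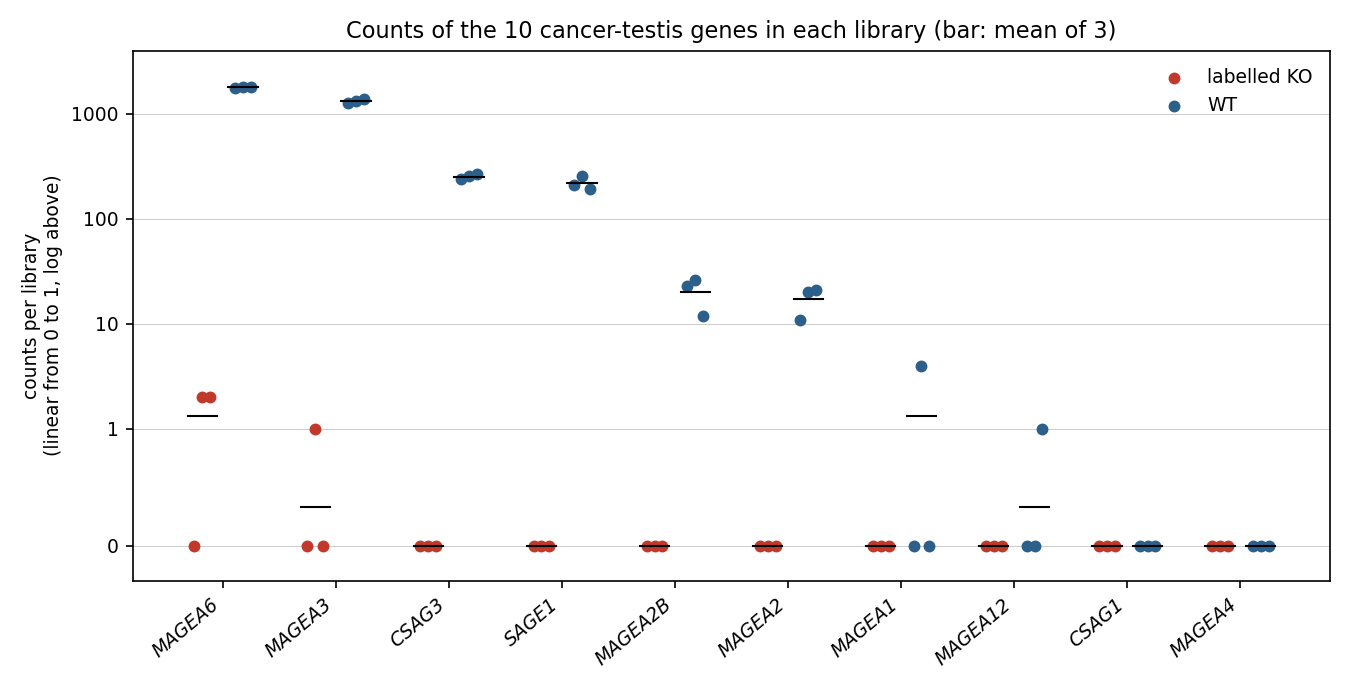
Counts of each of the 10 genes in each library, with the libraries labelled KO in red on the left and WT in blue on the right of each gene; bars are means of 3 libraries. The axis is linear from 0 to 1 and logarithmic above. Members run from MAGEA6, with 1771 to 1817 counts in WT libraries, to MAGEA4 and CSAG1, which had 0 counts in all 6 libraries.

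CSAG3 (ENSG00000268916, chrX:152753921-152760219), a chondrosarcoma-associated gene of the same cluster, had 0 counts in each library labelled KO, against 238, 255 and 267 counts in WT replicates 1 to 3. Its level in WT was 15.7 ± 0.627 CPM (SD, n = 3), at least 243-fold above a limit of 3 counts over the libraries labelled KO. Its near-identical copy CSAG2, which was not listed, also had 0 counts in each library labelled KO, against 29, 42 and 33 counts in WT replicates 1 to 3. The pair followed the same pattern in every library. Jointly CSAG2 and CSAG3 had 0 counts in libraries labelled KO and 267, 297 and 300 counts in WT replicates 1 to 3, at least 277-fold lower in libraries labelled KO. CSAG3 took 88.0 ± 1.85% of the joint WT count (SD, n = 3). SAGE1 (ENSG00000181433, chrX:135893716-135913062) had 0 counts in each library labelled KO, against 212, 256 and 194 counts in WT replicates 1 to 3. Its level in WT was 13.6 ± 1.67 CPM (SD, n = 3), and in libraries labelled KO it was at least 212-fold lower.

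MAGEA2 and MAGEA2B are copies that encode the same protein, which binds p53 as well as TRIM28. MAGEA2 (ENSG00000268606, chrX:152749863-152753884) had 0 counts in each library labelled KO, against 11, 20 and 21 counts in WT replicates 1 to 3. MAGEA2B (ENSG00000183305, chrX:152714586-152718607) had 0 counts in each library labelled KO, against 23, 26 and 12 counts in WT replicates 1 to 3. Both groups of libraries stood apart for each copy, at low counts in WT. Their joint count was 0 in each library labelled KO and 34, 46 and 33 in WT replicates 1 to 3, at least 36.2-fold lower in libraries labelled KO. MAGEA2B took 67.6%, 56.5% and 36.4% of the joint count in WT replicates 1 to 3. The exact binomial intervals of these shares overlapped (49.5% to 82.6%, 41.1% to 71.1% and 20.4% to 54.9%). Such overlap does not test whether the shares differ, and that was not tested. MAGEA12 (ENSG00000213401, chrX:152733757-152737669) had 1 count, in WT replicate 3, and MAGEA1 (ENSG00000198681, chrX:153179284-153183880), the first human tumour antigen found through T cells, had 4 counts, in WT replicate 2. MAGEA4 (ENSG00000147381, chrX:151912474-151925170), a partner of RAD18, and CSAG1 (ENSG00000198930, chrX:152727484-152733721) had 0 counts in all 6 libraries. The MAGEA12 span overlaps the CSAG4 locus over 3843 bp, 98.2% of its length, so reads there could have been set aside as ambiguous. CSAG4 had 0 counts in all 6 libraries. In WT libraries MAGEA6 held 49.3% of the member counts, MAGEA3 36.6%, CSAG3 6.94% and SAGE1 6.04%, shares that are not scaled to gene length.

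Whether the loss was complete depends on the gene and on the depth of each library. In KO replicate 1 every member had 0 counts. For MAGEA3 and MAGEA6 together, a count of 0 there allows up to 0.114% of the mean WT level. KO replicate 2 retained 0.0938% of the joint MAGEA3 and MAGEA6 level, with an exact counting interval from 0.0193% to 0.274%, and KO replicate 3 retained 0.0619%, from 0.00750% to 0.224%. These intervals overlap each other and the limit of KO replicate 1, so the 3 libraries labelled KO were not distinguishable in how much remained. CSAG2 and CSAG3 together could have kept up to 1.25% in KO replicate 1, 1.02% in KO replicate 2 and 1.01% in KO replicate 3. SAGE1 could have kept up to 1.63% in KO replicate 1, 1.34% in KO replicate 2 and 1.32% in KO replicate 3. For MAGEA2 and MAGEA2B together the limits were 9.56%, 7.84% and 7.77% in KO replicates 1 to 3, wider than for the other expressed genes, and the bound pooled over the libraries labelled KO is the tighter one given above. Without KO replicate 1, the library that stood apart from the others, 0.0778% of the joint MAGEA3 and MAGEA6 level remained, and CSAG3 and SAGE1 had 0 counts in the other libraries labelled KO as well.

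The level of expression in WT sets which genes a threshold would take in. With at least 2 CPM in each WT library and a mean under 1% of WT in libraries labelled KO, 29 of 13110 genes were lost (0.221%), MAGEA6, MAGEA3, CSAG3 and SAGE1 among them. CSAG2 had a WT mean of 2.13 CPM but 1.89 CPM in WT replicate 1, so it was not taken in. By WT mean, MAGEA2B (1.26 CPM), MAGEA2 (1.06 CPM) and MAGEA11 (0.532 CPM) lay just below 2 CPM, and CSAG3, at 15.7 CPM, was the nearest gene of the families to be taken in.

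The loss also took in genes of other families beside the members. With genes of at least 30 counts over the WT libraries placed in RefSeq order, and a mean in libraries labelled KO under 5% of WT called lost, 71 of 14810 ordered genes were lost. They held 3 runs of at least 2 adjacent genes, and 1 run of more than 2. That run held 11 genes over 840 kb (chrX:151953124-152793476): GABRE, GABRA3, MAGEA3-DT, GABRQ, MAGEA3, CSAG2, MAGEA2B, MAGEA2, CSAG3, MAGEA6 and MAGEA6-DT. Its bounds were drawn after the values were seen, and it has no test. GABRA3, which encodes a subunit of the GABA-A receptor, had 0 counts in each library labelled KO, against 184, 168 and 173 counts in WT replicates 1 to 3. GABRE, another subunit gene, had 0, 0 and 1 counts in KO replicates 1 to 3, against 31, 49 and 36 counts in WT replicates 1 to 3. GABRQ, another of them, had 0, 0 and 1 counts in KO replicates 1 to 3, against 16, 23 and 24 counts in WT replicates 1 to 3. None of the 3 genes overlapped between groups, as held for 24.1% of all tested genes. GABRQ lies wholly within the span of MAGEA3-DT, and no strand-specific counting is stated, so reads of the pair cannot be told apart. The divergent transcript MAGEA3-DT had 0 counts in each library labelled KO, against 67, 71 and 86 counts in WT replicates 1 to 3. MAGEA6-DT had 0 counts in each library labelled KO, against 48, 51 and 64 counts in WT replicates 1 to 3. These counts put MAGEA3-DT at least 71.7-fold and MAGEA6-DT at least 52.2-fold lower in libraries labelled KO. Both divergent transcripts thus had 0 counts where the MAGEA gene they face was nearly lost.

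**Figure D2:**
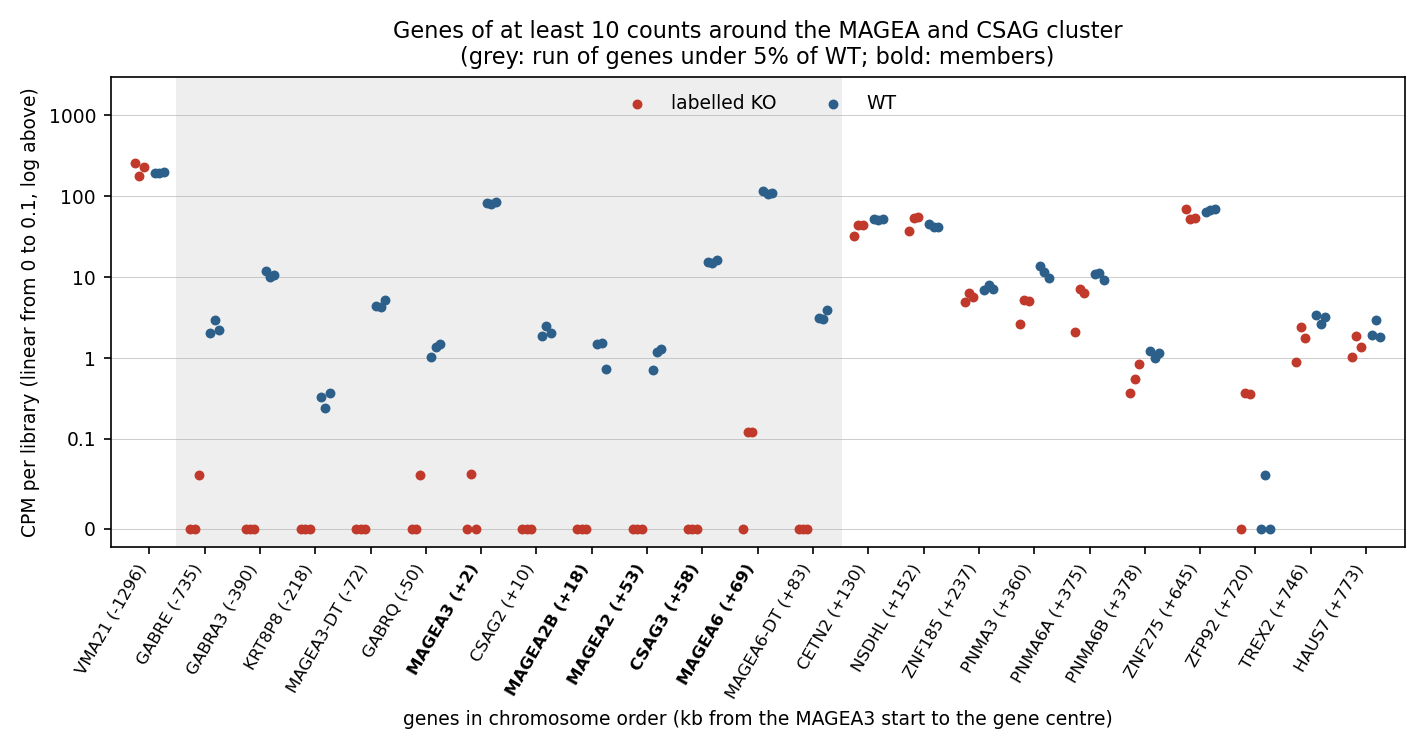
CPM of genes with at least 10 counts in chromosome order around MAGEA3, one point per library, red for labelled KO and blue for WT; distances from the MAGEA3 start to each gene's centre are in kb, and the axis is linear from 0 to 0.1 and logarithmic above. The 11 genes of the grey run, and the low pseudogene KRT8P8 among them, lie at or near 0 in the libraries labelled KO, whereas VMA21 on one side and CETN2 on the other are expressed in all 6 libraries.

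The run ended on either side at genes that were expressed in both groups. CETN2, which encodes a centrin of centrioles and nucleotide excision repair, starts 33.5 kb beyond MAGEA6-DT and had 438, 731 and 729 counts in KO replicates 1 to 3, against 798, 855 and 844 counts in WT replicates 1 to 3 (log2 fold change -0.36 ± 0.16 SE, adjusted p = 0.173 by edgeR). VMA21, an assembly factor of the vacuolar proton pump, lies 544 kb before GABRE and had 3526, 2918 and 3819 counts in KO replicates 1 to 3, against 3005, 3302 and 3272 counts in WT replicates 1 to 3 (log2 fold change 0.17 ± 0.17 SE, adjusted p = 0.495). Neither passed the test, and the sparse genes in the gap before GABRE leave that edge poorly placed. With genes under 1% of WT called lost the run held 7 genes, and with at least 10 WT counts it held 12.

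Around SAGE1 the pattern was confined to a head-to-head pair among the ordered genes. CT45A10, a cancer-testis gene of the CT45 family whose copies are hard to tell apart, had 0 counts in each library labelled KO, against 49, 53 and 60 counts in WT replicates 1 to 3. It was at least 51.9-fold lower in libraries labelled KO. The next ordered genes on either side, INTS6L and MMGT1, lay 299 kb and 47.5 kb away and were expressed in all libraries. MMGT1, which encodes a subunit of the ER membrane protein complex, had 4102, 1717 and 2122 counts in KO replicates 1 to 3, against 2086, 2302 and 2292 counts in WT replicates 1 to 3, and did not pass the test (log2 fold change 0.37 ± 0.38 SE, adjusted p = 0.518 by edgeR). KO replicate 1 was high and set most of its spread.

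**Figure D3:**
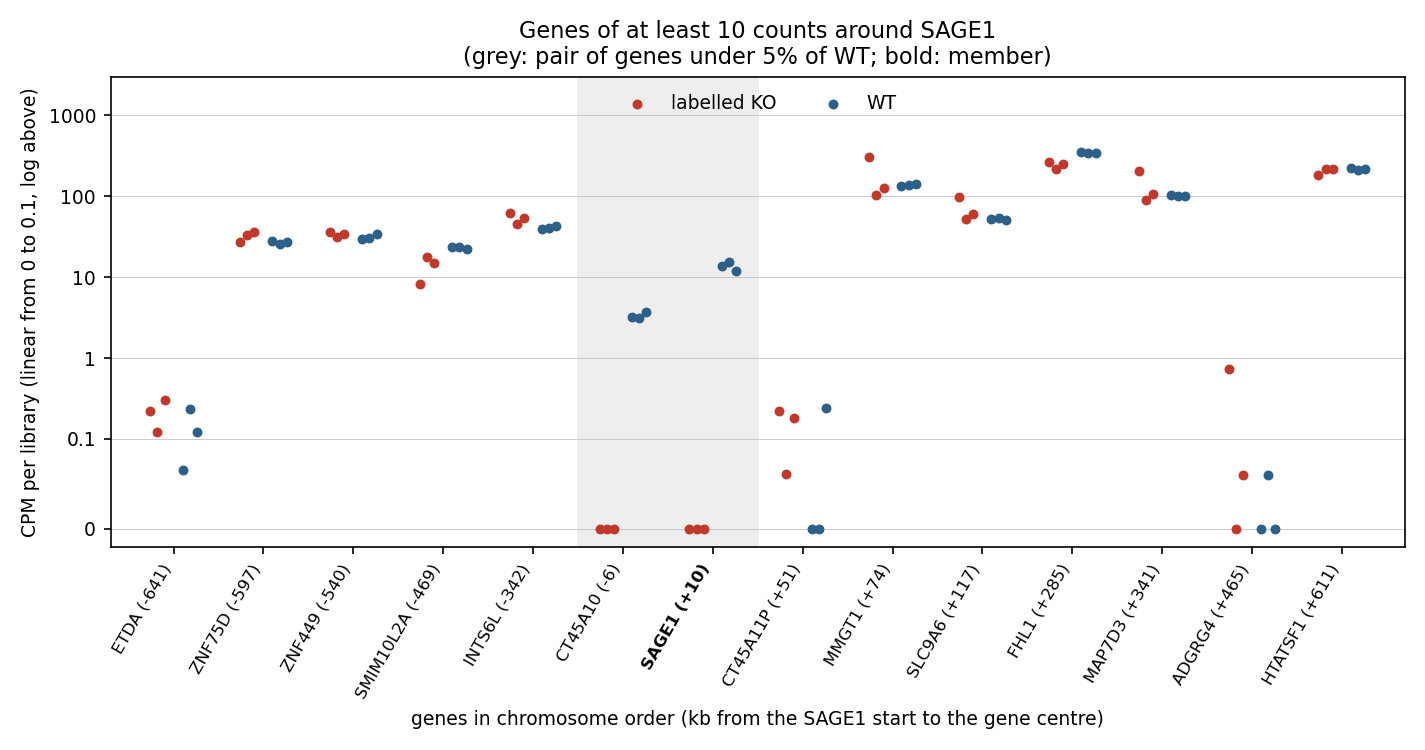
CPM of genes with at least 10 counts in chromosome order around SAGE1, one point per library, red for labelled KO and blue for WT; distances from the SAGE1 start to each gene's centre are in kb, and the axis is linear from 0 to 0.1 and logarithmic above. SAGE1 and CT45A10 stand at 0 in the libraries labelled KO, and MMGT1 and the other well expressed genes on either side do not.

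Among the 65 non-member genes between the Xq28 members or nearest to the members, 22 passed the filter on low counts, 9 fell and 1 rose by edgeR, against 6.50% lower and 8.64% higher over all tested genes. These neighbours include the lost genes just described, which passed that filter through WT alone. Their count is thus not independent of the run or of the filter, and nothing is read from it. The rise was that of GPR50, an orphan receptor gene related to the melatonin receptors, with 236, 255 and 264 counts in libraries labelled KO, against 20, 11 and 10 counts in WT libraries (log2 fold change 4.25 ± 0.31 SE, adjusted p = 0.000536). It stands before the run, beyond VMA21. FHL1, a LIM-domain gene beyond SAGE1, fell by 0.51 ± 0.13 on the log2 scale (adjusted p = 0.0405), and PNMA3, a paraneoplastic antigen gene between the run and MAGEA1, fell by 1.44 ± 0.30 (adjusted p = 0.0215). PNMA3 retained 36, 85 and 85 counts in KO replicates 1 to 3, against 214, 196 and 158 counts in WT replicates 1 to 3, so its fall was partial. FHL1 and PNMA3 were named after their values were seen.

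Over the whole X chromosome, calls stood near the autosomal share. Of 568 tested X-linked genes, 8.63% were higher and 7.04% lower, against 9.05% and 7.03% of 14530 autosomal genes, and the median log2 fold changes were 0.070 and 0.00085. Of the X-linked genes at 2 CPM or more in each WT library, 11 of 461 (2.39%) were under 1% of WT in libraries labelled KO, of autosomal genes 16 of 11843 (0.135%). Members made up 4 of the 11, and GABRA3, GABRE, MAGEA3-DT, MAGEA6-DT and CT45A10 are their neighbours. GSPT2, a translation termination factor gene, and HTR2C, a serotonin receptor gene, were the remaining ones.

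Patterns over the 6 libraries were compared with that of the summed counts of the 10 members, by root mean square difference of log2 CPM. Among 9886 genes with at least 10 CPM in each WT library, the nearest non-members were GTSF1, SFRP1, GSPT2, RNU6-1 and ZC3HAV1L. Their differences were 1.64, 1.68, 1.77, 1.80 and 2.01. With almost no counts in libraries labelled KO, this measure depends mainly on the WT level. Its order was that of their WT means (32.0, 26.8, 24.5, 24.1 and 19.5 CPM). A likeness beyond the near-complete loss is therefore not read from it. GTSF1, a cofactor of piRNA-guided silencing in germ cells, had 0, 0 and 1 counts in KO replicates 1 to 3, against 503, 477 and 569 counts in WT replicates 1 to 3. Of these 5 genes GSPT2 alone lies on the X chromosome.

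Other MAGE genes showed what remained of the family. Of the 11 further MAGEA and CSAG genes and pseudogenes, 10 were in the files, and CSAG2 was the single one tested. CSAG2 passed the filter on low counts through WT alone and is a near-identical copy of the listed CSAG3. Its fall is therefore a description, and nothing is read from its test. MAGEA10 had 0, 0 and 2 counts in KO replicates 1 to 3, against 3, 3 and 1 counts in WT replicates 1 to 3. MAGEA11, a coregulator of the androgen receptor, had 2, 0 and 0 counts in KO replicates 1 to 3, against 7, 13 and 6 counts in WT replicates 1 to 3. The low counts of MAGEA10 and MAGEA11 leaned to WT but were too few to test. Not all of the list did so: MAGEA7P had 2 counts over the libraries labelled KO and 0 over WT libraries, and MAGEA9B had 1 in each group. MAGEA8 had 4 counts over the libraries labelled KO and 6 over WT libraries. None of the 13 MAGEB and MAGEC genes reached the filter, and 8 had 0 counts in all 6 libraries. MAGEC1 had 1 count over the libraries labelled KO and 3 over WT libraries, and MAGEC2 had 1 count over the libraries labelled KO and 2 over WT libraries. MAGEB2, named after its values were seen, had 0 counts in each library labelled KO, against 9, 8 and 4 counts in WT replicates 1 to 3.

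The type II MAGE genes are broadly expressed relatives. Of 12 listed, 8 were tested and 3 fell, MAGED4, MAGED1 and TRO, against 6.50% lower over all tested genes, with a median log2 fold change of -0.75 over the 8 against 0.0055 over all tested genes. MAGED4 had 1.89 ± 0.455 CPM in libraries labelled KO and 6.84 ± 0.925 CPM in WT (log2 fold change -1.85 ± 0.27 SE, adjusted p = 0.00598 by edgeR). Its near-identical copy MAGED4B makes the split of reads uncertain. MAGED4B had 64, 42 and 26 counts in KO replicates 1 to 3, against 92, 125 and 112 counts in WT replicates 1 to 3. It did not pass (log2 fold change -1.21 ± 0.39 SE, adjusted p = 0.0795 by edgeR). MAGED1, an adaptor of p75 neurotrophin receptor signalling, had 206 ± 34.2 CPM in libraries labelled KO and 330 ± 9.46 CPM in WT (log2 fold change -0.68 ± 0.16 SE, adjusted p = 0.0297). Their count depended on the libraries used, as did that of all tested genes. With WT replicate 1, 2 or 3 or KO replicate 3 left out 1 gene passed, when 644 to 1173 of all tested genes passed. Without KO replicate 1, 5 fell, against 21.7% lower over all tested genes.

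Of 56 genes of other X-linked cancer-testis families, 38 had 0 counts in all 6 libraries. CT45A10, lost beside SAGE1 as given above, was not on this list, although other genes of the CT45 family were. The single tested one, the transketolase-like gene TKTL1, did not pass (26, 13 and 13 counts in KO replicates 1 to 3, against 35, 38 and 33 counts in WT replicates 1 to 3, adjusted p = 0.175 by edgeR). It was called lower once KO replicate 1 was left out (adjusted p = 0.00487). Of 22 tested autosomal germline genes, 5 rose and 2 fell, against 8.64% and 6.50% of all tested genes. BOLL, a germ cell RNA-binding protein gene, had 2.85 ± 2.55 CPM in libraries labelled KO and 0.241 ± 0.211 CPM in WT (log2 fold change 3.48 ± 0.87 SE). KO replicate 1 was the highest at 5.77 CPM. BOLL passed the filter on low counts through the libraries labelled KO alone, and GTSF1 through WT alone. Both are among the genes counted, so their changes are descriptions and nothing is read from their tests. TEX14, which is needed for the bridges between germ cells, had 3.92 ± 0.758 CPM in libraries labelled KO and 1.47 ± 0.400 CPM in WT (log2 fold change 1.41 ± 0.32 SE, adjusted p = 0.0289). GTSF1 fell as given above, and KIF2C, a mitotic kinesin, fell by 0.58 ± 0.12 (adjusted p = 0.0215). PRAME, another tumour antigen gene, had 1 count over the libraries labelled KO and 0 over WT libraries. With any one of WT replicates 1, 2 and 3 or KO replicate 3 left out, 1 gene of this list passed, when 644 to 1173 of all tested genes passed.

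Genes of DNA methylation and promoter silencing were measured for what is known to hold MAGEA promoters off. Of 34 tested, 2 rose and 1 fell, no larger a share than the 8.64% and 6.50% of all tested genes, with a median log2 fold change of 0.062. DNMT1, the maintenance methyltransferase, had 415 ± 34.9 CPM in libraries labelled KO and 431 ± 12.8 CPM in WT (adjusted p = 0.782), and DNMT3A, a de novo enzyme, had 52.2 ± 7.18 CPM in libraries labelled KO and 50.4 ± 2.36 CPM in WT (adjusted p = 0.837). DNMT3B, the other de novo enzyme, had 84.1 ± 14.7 CPM in libraries labelled KO and 124 ± 1.68 CPM in WT, and did not pass (log2 fold change -0.56 ± 0.16 SE, adjusted p = 0.0590). UHRF1, which guides DNMT1 to newly copied DNA, had 134 ± 50.03 CPM in libraries labelled KO and 168 ± 8.02 CPM in WT (adjusted p = 0.439). None of the 4 passed by edgeR with all libraries, and without KO replicate 1 DNMT3B was called lower (log2 fold change -0.42). MORC2, a subunit that works with the HUSH silencing complex, rose to 166 ± 34.0 CPM in libraries labelled KO, against 74.2 ± 5.55 CPM in WT (log2 fold change 1.16 ± 0.18 SE, adjusted p = 0.00739). TET3, which oxidises methylated cytosine, rose by 0.72 ± 0.19 (adjusted p = 0.0447), and the histone deacetylase gene HDAC1 fell by 0.51 ± 0.14 (adjusted p = 0.0474). Without KO replicate 1 the count was 17 (10 higher, 7 lower), against 22.3% higher and 21.7% lower over all tested genes. It was 0 without WT replicate 1, and 1 without WT replicate 2, WT replicate 3 or KO replicate 3. Over all tested genes 663, 670, 644 and 1173 passed with these libraries left out.

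Factors of the ETS and Sp1 families and other candidates for MAGEA promoters were expressed in both groups. Of 19 tested, 4 rose, KIT, ELK4, ELF2 and YY1, and the other 15 did not pass, against 8.64% higher over all tested genes. KIT, a receptor tyrosine kinase reported to act upstream of MAGE genes, had 45.3 ± 15.3 CPM in libraries labelled KO and 18.5 ± 1.91 CPM in WT (log2 fold change 1.29 ± 0.25 SE, adjusted p = 0.0164 by edgeR). ELK4, an ETS factor, had 108 ± 29.8 CPM in libraries labelled KO and 47.6 ± 2.27 CPM in WT (log2 fold change 1.18 ± 0.21 SE, adjusted p = 0.0132). KO replicate 1 was the highest library for both. With KO replicate 1 left out 8 rose and 5 fell, against 22.3% higher and 21.7% lower over all tested genes. With WT replicate 1, 2 or 3 left out no gene of the list passed, when 663, 670 and 644 of all tested genes passed.

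Of 15 tested genes for proteins that MAGE-A proteins bind or act on, 1 rose, a share near the 8.64% of all tested genes. That was RAD18, the DNA damage ligase bound by MAGEA4, with 164, 78.8 and 79.7 CPM in KO replicates 1 to 3, against 47.7, 50.4 and 45.2 CPM in WT replicates 1 to 3 (log2 fold change 1.17 ± 0.30 SE, adjusted p = 0.0407 by edgeR). TRIM28, the ligase bound by MAGEA3 and MAGEA6, had 705 ± 110 CPM in libraries labelled KO and 565 ± 24.2 CPM in WT (log2 fold change 0.32 ± 0.15 SE, adjusted p = 0.189), and was called higher once KO replicate 1 was left out (log2 fold change 0.45). PRKAA1, the AMPK subunit that this ligase targets, had 62.2 ± 18.9 CPM in libraries labelled KO and 50.1 ± 1.36 CPM in WT (adjusted p = 0.359). The mRNA of these partners was thus present in both groups, and protein was not measured. Without KO replicate 1 the count was 8 (7 higher, 1 lower), against 22.3% higher and 21.7% lower over all tested genes. It was 3 without KO replicate 2, when 2706 of all tested genes passed. It was 0 without KO replicate 3 or any one WT library, when 644 to 1173 passed.

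**Figure D4:**
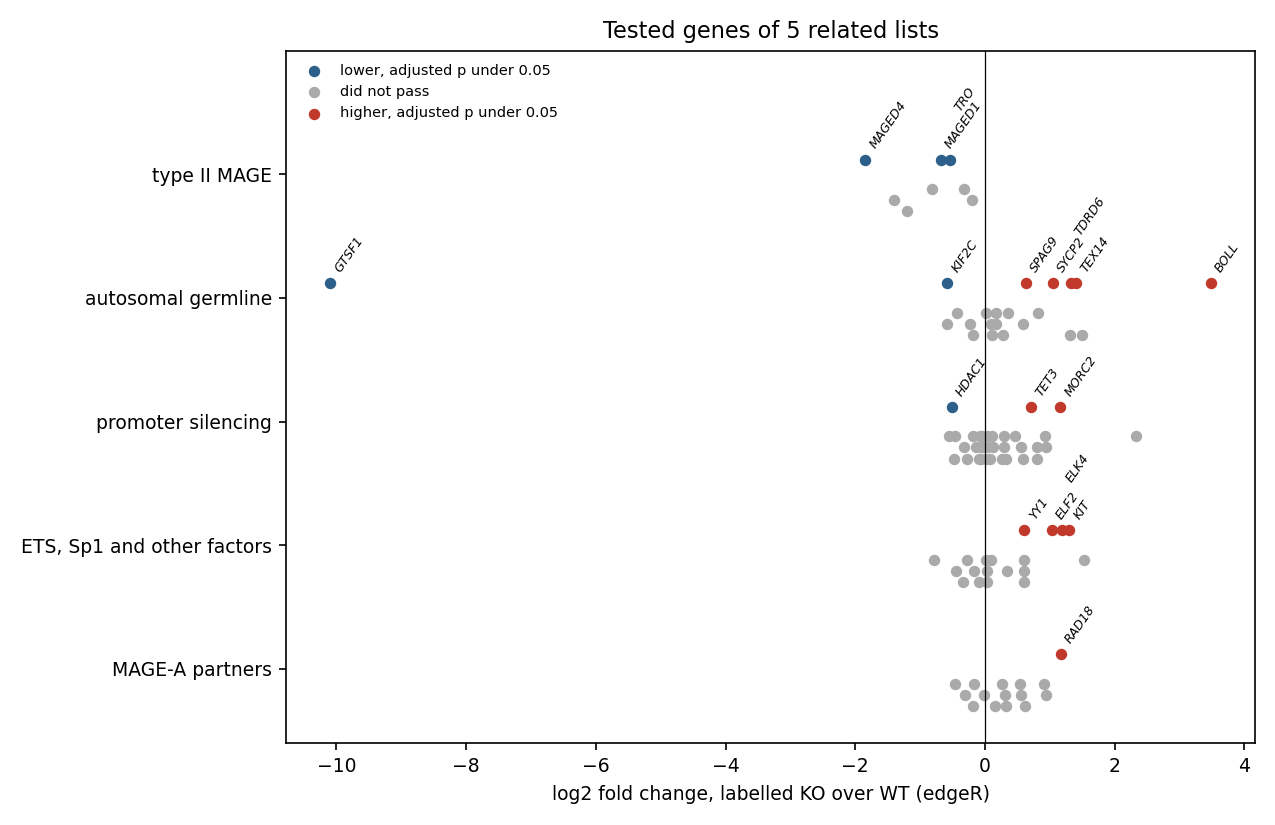
Log2 fold change (labelled KO over WT, edgeR) of each tested gene of 5 lists, named where the adjusted p was under 0.05; red points were higher and blue points lower in libraries labelled KO, and grey points did not pass. Apart from GTSF1, the genes of these lists lie between MAGED4 at -1.85 and BOLL at 3.48, unlike the loss of the MAGEA members.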

How the data were processed

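Messenger RNA of 3 libraries labelled C17orf80 knockout and 3 WT libraries was counted per gene by the authors. The deposited counts are whole numbers and not normalised. The submitters' processing notes name HISAT2 2.2.1, HTSeq 0.12.4 and GRCh38, and not how reads with several alignments, or strand, were treated. Rows for reads in no feature (8.75% to 15.9%) and ambiguous reads (9.74% to 12.5%) were left out. Symbols were matched for 61399 of 61552 Ensembl identifiers, and coordinates come from RefSeq (GRCh38.p14). The test was edgeR 4.0.16 under R 4.3.3 (TMM, filterByExpr, quasi-likelihood F test, Benjamini-Hochberg over 17452 genes, threshold 0.05). Limits for 0 are 3 counts, and intervals are exact at 95%. Of each list, up to 2 genes per direction with the largest changes at 2 CPM or more are named, and 11 genes whatever their value. Others, such as TRO, ELF2, YY1, CDH2, TKTL1, MAGEA11 and the remaining neighbours, were named after their values were seen. Members, lists and tests were chosen with earlier results of these data known. Alternatives were DESeq2 1.42.0, limma-voom (limma 3.58.1), other scalings, filters and prior counts, a replicate block, and omission of single libraries. The script was tested on simulated data. The mitochondrial coverage files were not used here. The blood cell marker list is not reported here.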

Additional observations from a re-analysis of the deposited data

How the results depend on the processing

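The share of the WT level left in libraries labelled KO was 0.0446% for all members and 0.0519% for MAGEA3 and MAGEA6. It moved only when a library was left out, from 0.0266% to 0.0669% for the members and from 0.0310% to 0.0778% for the pair, under all scalings and omissions tried. Of 256 alternatives, 60 were labelled as moved. A reversal could be labelled only for the prior counts, so the lack of reversals is not read as a result. Of all tested genes 2641 passed with edgeR, 4206 with DESeq2 and 969 with a replicate block, and 644 (without WT replicate 3) to 7975 (without KO replicate 1) with one library left out. The replicate numbers are shared by label only (correlations of same-numbered deviations -0.058, -0.029 and 0.0022), and not every library correlated best with its own number. With the block, 1 gene passed among type II MAGE genes, autosomal germline genes, silencing genes and fibroblast markers alike, and 0 among partners. It was also 1 for transcription factors, a list that holds the kinase gene KIT as well. With one library left out, counts ran from 1 to 5 for type II MAGE genes, 0 to 1 for X-linked families, 1 to 10 for germline genes, 0 to 17 for silencing genes, 0 to 13 for transcription factors, 0 to 8 for partners, 5 to 7 for line markers, 1 to 3 for fibroblast markers and 8 to 15 for neighbours. These ranges stand beside the 644 to 7975 of all tested genes and are not read as changes of the lists. Without a filter on low counts, 5 silencing genes, 3 partners and 1 MAGEB or MAGEC gene passed, and with DESeq2 5 silencing genes and 2 partners. The run held 7 genes under 1% of WT, 12 at 10 WT counts, and 11 without any one library. The causes were not tested. Fitted log2 differences of the members depend on the prior count (MAGEA3 -9.17 at 2, -10.84 at 0.5 and -7.96 at 5), so ratios of counts are given instead. Among the 6 expressed members, a count of 0 bounds the loss most loosely for MAGEA2 and MAGEA2B.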
